A study of Mus musculus with 12 samples.

Results

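Immediate early genes and heat shock genes were followed in the mouse prostate after exposure to chlordecone, in the womb (F1) or ancestral (F3). The set was a list of 38 gene names, 25 immediate early and 13 heat shock genes, and all 38 were found among the 19091 genes of the F1 table and among the 26023 genes of the F3 table. RNA sequencing compared 4 groups: F1 control, F1 chlordecone, F3 control and F3 chlordecone. Chlordecone, also called kepone, is an organochlorine insecticide, and pregnant F0 females received 100 µg/kg/day from E6.5 to E15.5 (embryonic days). Their F1 sons, exposed in the womb, and F3 males bred from the exposed line were the source of the chlordecone prostates, and the control males are labelled only as control of the same generation. For strain, age at dissection and what the controls' foremothers received, nothing was given in the sources used here. The labels list 12 samples, 11 libraries were analysed, and F1 control 3 was not analysed here, so F1 set 2 controls against 3 chlordecone libraries and F3 set 3 against 3. The labels do not say that libraries came from separate animals or litters, so each p-value measures only the spread between these samples, which may be technical.

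Immediate early genes are transcribed within minutes of a stimulus without new protein synthesis, and many encode transcription factors such as FOS and JUN, which pair as AP-1, or proteins that switch the response off again. Heat shock genes encode chaperones that fold or refold proteins, and the factor HSF1 switches many of them on by binding heat shock elements when unfolded protein accumulates. The prostate is a secretory gland, and secretory cells fold their products in the endoplasmic reticulum with chaperones such as HSPA5 (BiP).

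Total counts per library were 17228539 to 28061760 in F1 and 71672418 to 114762135 in F3. Levels are in CPM, counts scaled to a common library size with factors from the trimmed mean of M values (TMM), and fold changes are log2, chlordecone over control, from edgeR fitted on all genes of a generation. Values in the text follow the library numbers, controls 1 and 2 (and 3 in F3), then chlordecone 1, 2 and 3. In bulk tissue, fewer cells of a type and less RNA per cell cannot be told apart. The F1 chlordecone libraries stood apart from each other in markers of neighbouring organs: the summed level of 6 vas deferens and epididymis markers was 25.2 and 26.5 CPM in controls against 44404, 157 and 14329 CPM after chlordecone, and all 6 had a higher mean after chlordecone. The 10 smooth muscle markers summed to 4868 and 4720.5 CPM in controls against 14253, 6266 and 8914 CPM after chlordecone, again with all 10 higher in the mean. The 7 seminal vesicle markers summed to 118370.0 and 120990.0 CPM in controls against 186980.0, 429990.0 and 528820.0 CPM after chlordecone. Of these 7, only 5 had a higher mean after chlordecone. No marker of these 3 lists was at 0 in every F1 library. The prostate secretion markers, 6 of 7 listed, were present at 52151 to 101610 CPM in F1 and 85704 to 103580 CPM in F3, while seminal vesicle markers summed to at most 70.6 CPM in F3. The 2 F1 controls were closer to each other than any 2 of the F1 chlordecone libraries, at 16.5 per gene in a chi-square comparison against 327 to 619. Counts of genes whose groups did not overlap are therefore given beside the share over all genes.

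Promoters were taken from RefSeq (GRCm38.p6), 250 bases before to 50 after each start, matched by symbol. They were found for 21 of the 25 immediate early and 10 of the 13 heat shock genes. Egr1, Egr3, Ier2, Myc, Hspa8, Hsp90aa1 and Hsp90ab1 had no matched promoter and were not searched. The 200 bases before the start are printed, 5′ to 3′ on the gene's strand, for 4 heat shock genes and for Btg2, because they carry elements counted in the next paragraph. Capitals mark the inverted pairs of heat shock units, GAANNTTC or TTCNNGAA, and in Hspe1 the whole heat shock element, and in Btg2 the cyclic AMP response element TGACGTCA.
Hsph1 (chr5:149636337-149636536, minus strand): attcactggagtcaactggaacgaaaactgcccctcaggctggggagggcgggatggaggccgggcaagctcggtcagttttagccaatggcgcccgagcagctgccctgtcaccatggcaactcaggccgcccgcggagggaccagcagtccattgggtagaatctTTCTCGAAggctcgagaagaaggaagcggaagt
Hspe1 (chr1:55087948-55088147, plus strand): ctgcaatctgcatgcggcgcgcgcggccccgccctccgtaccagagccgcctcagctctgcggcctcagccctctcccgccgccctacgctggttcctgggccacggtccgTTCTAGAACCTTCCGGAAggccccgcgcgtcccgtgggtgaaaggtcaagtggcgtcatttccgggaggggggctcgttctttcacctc
Hspb1 (chr5:135887719-135887918, plus strand): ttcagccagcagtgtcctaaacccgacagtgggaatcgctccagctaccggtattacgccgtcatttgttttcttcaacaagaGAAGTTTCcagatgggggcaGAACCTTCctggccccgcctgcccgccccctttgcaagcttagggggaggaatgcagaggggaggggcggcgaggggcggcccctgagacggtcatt
Hspa1a (chr17:34972157-34972356, minus strand): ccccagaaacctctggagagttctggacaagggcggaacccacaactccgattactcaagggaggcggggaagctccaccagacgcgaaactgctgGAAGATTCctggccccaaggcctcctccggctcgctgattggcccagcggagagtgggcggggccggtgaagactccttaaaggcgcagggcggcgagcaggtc
Btg2 (chr1:134079156-134079355, minus strand): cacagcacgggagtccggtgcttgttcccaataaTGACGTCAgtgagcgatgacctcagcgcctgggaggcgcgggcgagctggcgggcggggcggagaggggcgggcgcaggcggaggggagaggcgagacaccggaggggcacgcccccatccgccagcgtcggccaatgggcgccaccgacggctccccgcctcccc

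A full heat shock element, 3 alternating GAA and TTC units with 2 bases between them, searched on both strands, was in the window of 3 of the 10 heat shock genes (Hspd1, Hspe1 and Hsph1), of 0 of the 21 immediate early genes and of 0.603% of all 32851 RefSeq promoters. In Hsph1 it lay after the start and so outside the stretch shown. The shorter pair GAANNTTC, which can be part of a full element, was in 8 of 10 heat shock genes, 2 of 21 immediate early genes (Jun and Fosl2) and 7.86% of all promoters. The other pair, TTCNNGAA, was in 3 of 10 heat shock genes, 1 of 21 immediate early genes (Egr2) and 8.52% of all promoters. Hspa1b has the stretch shown for Hspa1a but for 1 base. The Hspd1 and Hspe1 genes, which encode the mitochondrial chaperonin and its lid, stand head to head, and their windows shared 285 of 300 bases, so that 1 element serves both counts. TGACGTCA was in 2 of 21 immediate early genes, Btg2 and Dusp1, in none of the heat shock genes and in 1.79% of all promoters. The CArG box (CC, 6 A or T, GG), bound by serum response factor, was in 2 of 21 (Egr2 and Zfp36) against 1.63%, and TATAAA in 5 of 21 (Fos, Junb, Nr4a2, Gadd45b and Gadd45g) against 13.6%. The AP-1 site TGACTCA was in 2 of 10 heat shock genes (Hspa5 and Bag3), in none of the immediate early genes and in 5.2% of all promoters. These gene counts take a match in any window of a gene, and some genes had several, whereas the share of all promoters counts each window. By window, the CArG box was in 5 of 25 immediate early promoters, mostly those of Egr2. The heat shock element was in 4 of 15 heat shock promoters. A match describes letters in a window and shows no binding.

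No immediate early gene passed the threshold in F1 prostates (edgeR quasi-likelihood test, Benjamini-Hochberg adjusted p under 0.05), and 0.0281% of all 17804 genes tested did. The smallest p-values belonged to the growth arrest genes Gadd45a, Gadd45g and Btg2, with a higher mean after chlordecone, and to the orphan receptor Nr4a1, with a lower one. At an unadjusted p under 0.05 stood 5 of 25, against 11.5% of all genes: 4 were higher (Gadd45a, Gadd45g, Btg2 and Fosl2; 7.93% of all genes) and 1 lower (Nr4a1; 3.6% of all genes). The median log2 fold change of the 25 was 0.02, as was that of all genes, with 13 above 0 and 12 below. DESeq2 also called 0 of the 25, where it called 4.04% of all genes.

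Gadd45a, a p53 target that slows the cell cycle after DNA damage (chr6:67035096-67037457, GRCm38 in GENCODE M21, as for all genes below, each of them protein-coding), was at 3.98 and 4.26 CPM in controls against 36.2, 6.76 and 8.65 CPM after chlordecone. All 3 chlordecone libraries lay above both controls, and chlordecone 1 was far above the other two. For Gadd45a the log2 fold change was 2.06 (SE 0.74, edgeR adjusted p = 0.351), and without chlordecone 1 it was 0.90. Gadd45g, its relative induced by growth arrest (chr13:51846678-51848468), was at 6.03 and 8.998 CPM in controls against 18.1, 8.56 and 26.2 CPM after chlordecone, and the groups overlapped because chlordecone 2 lay below control 2. For Gadd45g the log2 fold change was 1.23 (SE 0.49, edgeR adjusted p = 0.4005). Gadd45b, the third member of the family, was at 3.56 and 1.92 CPM in controls against 7.09, 5.34 and 5.94 CPM after chlordecone, with no overlap. For Gadd45b the log2 fold change was 1.16 (SE 0.52, edgeR adjusted p = 0.448). Btg2, an antiproliferative partner of the mRNA deadenylase (chr1:134075170-134079120), was at 11.6 and 9.47 CPM in controls against 16.2, 18.5 and 16.3 CPM after chlordecone, again without overlap but within a narrow range. For Btg2 the log2 fold change was 0.69 (SE 0.29, edgeR adjusted p = 0.414). Without chlordecone 2 (2 libraries against 2), Gadd45a and Gadd45g passed the threshold (edgeR adjusted p = 0.0367 and 0.0194), in a fit that called 15% of all genes. Over all alternatives run, the adjusted p of Gadd45a ranged from 0.0367 to 0.886 and that of Gadd45g from 0.0194 to 0.914. Exons of Gadd45a overlap those of E230016M11Rik on the other strand, and how the counting treated strand was not given in the sources used here. The value is therefore uncertain.

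The remaining feedback genes overlapped between groups. Dusp1, a phosphatase that inactivates MAP kinases, was at 17.6 and 17.8 CPM in controls against 25.7, 14.4 and 9.299 CPM after chlordecone. Zfp36 (tristetraprolin), which speeds the decay of AU-rich mRNAs, was at 6.08 and 6.795 CPM in controls against 13.5, 10.1 and 4.33 CPM after chlordecone. Socs3, the feedback inhibitor of cytokine receptors, was at 4.77 and 2.999 CPM in controls against 1.62, 3.38 and 1.105 CPM after chlordecone. In each of these 3 the chlordecone libraries lay on both sides of at least 1 control, and the log2 fold changes were -0.10, 0.53 and -0.93.

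Nr4a1 (NUR77), an orphan nuclear receptor induced by growth and stress signals (chr15:101254269-101274795), was at 16.4 and 17.6 CPM in controls against 10.6, 7.52 and 11.1 CPM after chlordecone. Every chlordecone library lay below both controls. For Nr4a1 the log2 fold change was -0.80 (SE 0.31, edgeR adjusted p = 0.383), with a 95% interval of -1.52 to -0.09. In 1 fit of all 11 libraries, Nr4a1 passed the threshold, at a log2 fold change of -0.82 and an edgeR adjusted p of 0.0488, where 5.48% of all genes passed; over all alternatives its adjusted p ranged from 0.0488 to 0.886. Nr4a2 (NURR1), of the same family, was at 7.597 and 8.11 CPM in controls against 6.098, 9.27 and 5.29 CPM after chlordecone, and its groups overlapped. The 3 Krüppel-like factors, which control growth and differentiation, had log2 fold changes of -0.35 (Klf2), -0.38 (Klf4) and -0.03 (Klf6). Klf2 and Klf4 were lower in each chlordecone library than in both controls. Klf2 was at 20.02 and 20.2 CPM in controls against 13.8, 18.5 and 15.1 CPM after chlordecone. Klf4 was at 34.9 and 37.7 CPM in controls against 23.7, 32.1 and 28.1 CPM after chlordecone. Klf6 (chr13:5861482-5870394), 1 of the 3 members with the highest mean CPM, was at 83.1 and 70.3 CPM in controls against 83.6, 63.1 and 77.9 CPM after chlordecone and did not separate. For Klf6 the log2 fold change was -0.03 (SE 0.26, edgeR adjusted p = 0.978).

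Of the AP-1 genes, Jun (chr4:95049034-95052222), whose protein is the partner of FOS, was at 48.7 and 49.3 CPM in controls against 32.8, 41.4 and 38.5 CPM after chlordecone. Its chlordecone libraries were all lower. For Jun the log2 fold change was -0.38 (SE 0.24, edgeR adjusted p = 0.602). Jund (chr8:70698949-70700616), a JUN relative already present in resting cells, was at 45.6 and 47.5 CPM in controls against 62.9, 56.7 and 50.2 CPM after chlordecone, all higher after chlordecone. For Jund the log2 fold change was 0.28 (SE 0.24, edgeR adjusted p = 0.722). Fosl2, a FOS relative of later and longer expression, was at 4.87 and 2.11 CPM in controls against 9.07, 7.52 and 7.23 CPM after chlordecone, with control 2 lowest. For Fosl2 the log2 fold change was 1.19 (SE 0.50, edgeR adjusted p = 0.423). Fos was at 11.5 and 11.7 CPM in controls against 12.1, 6.33 and 3.96 CPM after chlordecone. Fosb was at 2.41 and 4.499 CPM in controls against 1.15, 2.62 and 2.07 CPM after chlordecone. Junb was at 30.02 and 36.1 CPM in controls against 46.4, 24.3 and 29.8 CPM after chlordecone. These 3 genes overlapped between groups. Atf3, a stress-induced factor of the same fold, was at 14.6 and 22.4 CPM in controls against 12.3, 8.397 and 17.8 CPM after chlordecone and overlapped too. Exons of Jun overlap Junos, those of Junb overlap Prdx2 and those of Jund overlap Gm11175, each on the other strand, so their counts share the uncertainty stated for Gadd45a; the same holds for Dusp1 (Ergic1) and Zfp36 (Gm44710).

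Egr1, the zinc finger factor that serves as a standard readout of MAP kinase signalling, was at 8.803 and 7.08 CPM in controls against 15.4, 11.4 and 7.32 CPM after chlordecone. Of its relatives, Egr2 was at 2.31 and 1.5 CPM in controls against 2.49, 2.73 and 1.105 CPM after chlordecone. Egr3 was at 6.602 and 9.51 CPM in controls against 2.85, 10.6 and 2.39 CPM after chlordecone. Per kilobase of exon the F1 levels were 2.23 CPM for Egr1, 0.596 CPM for Egr2 and 1.45 CPM for Egr3. Egr3 in chlordecone 1 and 3 was below both controls while chlordecone 2 was the highest of the 5. Without chlordecone 2 Egr3 passed the threshold on the lower side (log2 fold change -1.62, edgeR adjusted p = 0.0412), in a fit that called 15% of all genes. With all libraries the value was -0.62 (SE 0.68, edgeR adjusted p = 0.787). Ier2, a nuclear protein of early response, was at 11.4 and 20.6 CPM in controls against 31.8, 16.1 and 23.5 CPM after chlordecone. Ier3, which modulates survival and NF-κB signals, was at 5.19 and 7.64 CPM in controls against 14.3, 8.397 and 11.1 CPM after chlordecone, and its chlordecone libraries lay above both controls. For Ier3 the log2 fold change was 0.81 (SE 0.40, edgeR adjusted p = 0.481). Myc was at 21.95 and 14.4 CPM in controls against 20.9, 22.1 and 30.7 CPM after chlordecone. Without regard to direction, the groups did not overlap for 10 of the 25 genes, 6 of them higher and 4 lower, against 31.3% of all genes.

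**Figure D1:**
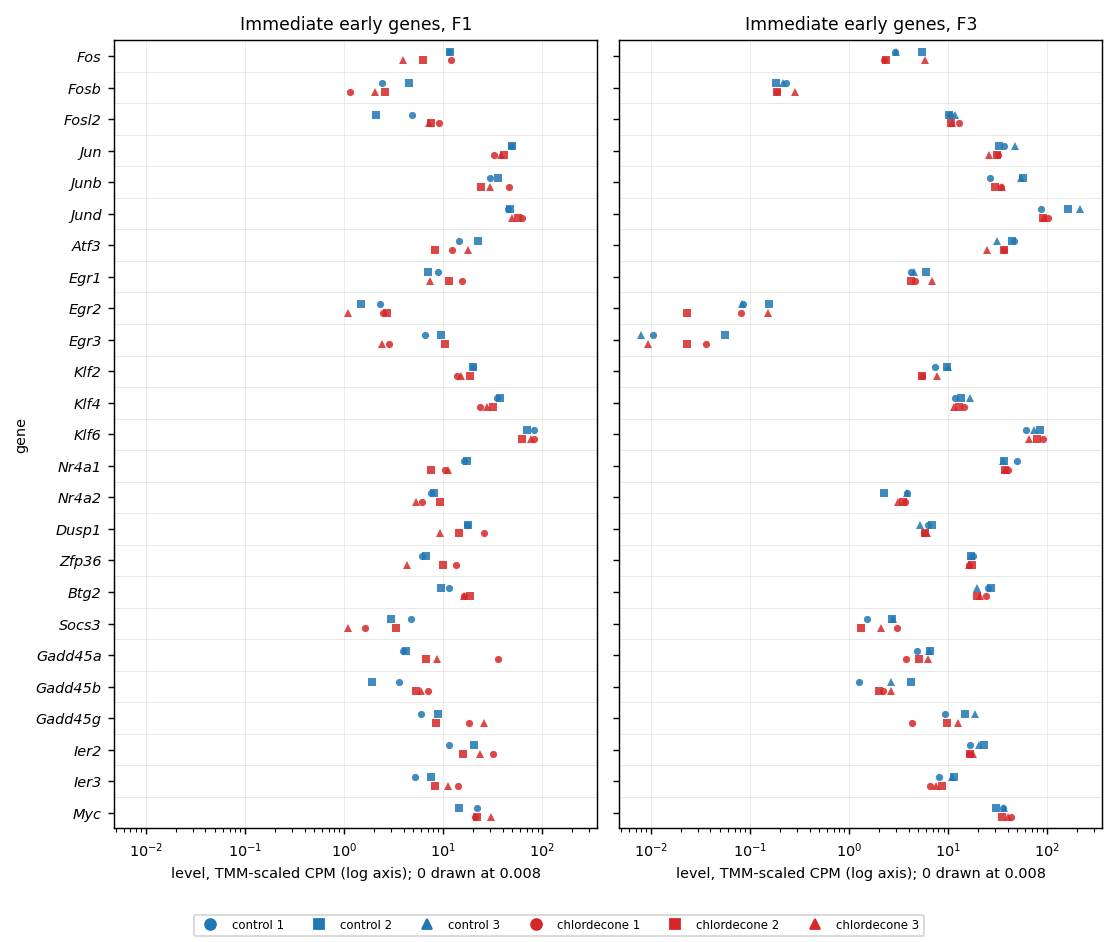
Levels of the 25 immediate early genes in each library, on a log axis of TMM-scaled CPM, with F1 (2 control and 3 chlordecone libraries) on the left and F3 (3 and 3) on the right; blue points are controls, red points chlordecone, and the marker gives the library number. Gadd45a in F1 chlordecone 1 stands at 36.2 CPM, and Egr3 in F3 control 3, at 0 counts, is drawn at the left edge.

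No heat shock gene passed the threshold in F1 either (edgeR, 0 of 13, against the 0.0281% of all genes given above), and most of them had a higher mean after chlordecone. The log2 fold change was above 0 for 11 of the 13, against 51.4% of all genes, with a median of 0.54 where that of all genes was 0.02. The constitutive chaperone Hspa8 and the HSP110 gene Hsph1 had the smallest p-values, and they made up the 2 of 13 at an unadjusted p under 0.05, a share of 15.4% beside 11.5% of all genes. All 3 chlordecone libraries were above both controls for 7 of 13, and below for 1 (Dnajb1), where 16.2% and 15.1% of all genes were so placed. DESeq2 called 2 of the 13, Hspa8 and Hsph1, among 4.04% of all genes.

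Hspa8 (HSC70), the constitutive cytosolic HSP70 that also uncoats clathrin (chr9:40800984-40810087), was at 103 and 98.3 CPM in controls against 586, 175 and 306 CPM after chlordecone. The 2 controls were nearly equal, and the chlordecone libraries spread over more than the gap that separated them from the controls. For Hspa8 the log2 fold change was 1.82 (SE 0.51, edgeR adjusted p = 0.248), with a 95% interval of 0.66 to 2.99, and without chlordecone 1 it was 1.25. With DESeq2 its adjusted p was 0.00553, in 1 fit of all libraries (edgeR) 0.0283, and without chlordecone 2 (edgeR) 0.00626, and it ranged from 0.00553 to 0.875 over all alternatives. The DESeq2 fit, the fit of all libraries and the fit without chlordecone 2 called 4.04%, 5.48% and 15% of all genes. Among the chlordecone libraries Hspa8 was highest in 1, then 3, then 2. The vas deferens and smooth muscle marker sums given above had the same order. The summed markers of striated muscle, urothelium, epithelium and endothelium had this order too. Those of leukocytes, fibroblasts, prostate secretion and adipose tissue did not. Neither did the seminal vesicle sum, which was highest in 3, then 2, then 1. The part of these markers in the result was not tested. Hspa8 exons also hold Snord14c, Snord14d and Snord14e on the same strand.

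Hsph1, an HSP110 that serves HSP70 as nucleotide exchange factor (chr5:149614287-149636376), was at 33.1 and 31.4 CPM in controls against 80.9, 59.7 and 61.2 CPM after chlordecone. The chlordecone libraries lay closer together than for Hspa8 and all above the controls. For Hsph1 the log2 fold change was 1.06 (SE 0.27, edgeR adjusted p = 0.221), with a 95% interval of 0.44 to 1.67. DESeq2 gave an adjusted p of 0.0123 and edgeR without chlordecone 2 gave 0.0111, within a range of 0.0111 to 0.874 over all alternatives. Those DESeq2 and edgeR fits called 4.04% and 15% of all genes. The heat-inducible HSP70 genes Hspa1a and Hspa1b are near copies. Their transcripts were 99.1% identical over 2200 aligned bases, with a longest identical run of 638 bases, so reads could be split or lost between them. Hspa1a was at 6.71 and 3.89 CPM in controls against 14.1, 7.14 and 8.06 CPM after chlordecone. Hspa1b was at 25.5 and 31.5 CPM in controls against 37.5, 32.4 and 30.1 CPM after chlordecone. The former was higher in every chlordecone library (log2 fold change 0.89, SE 0.47, edgeR adjusted p = 0.531), whereas the latter overlapped between groups (log2 fold change 0.23).

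Hspa5 (BiP), the HSP70 of the endoplasmic reticulum (chr2:34771970-34777547), had the highest level per kilobase of exon in the class, 633 CPM per kb in F1. It was at 1884 and 1859.8 CPM in controls against 3665, 2094 and 3878 CPM after chlordecone, so that chlordecone 1 and 3 were far above the controls and chlordecone 2 only slightly. For Hspa5 the log2 fold change was 0.78 (SE 0.40, edgeR adjusted p = 0.511). Dnaja1, an HSP40 that hands clients to HSP70, was at 111 and 121 CPM in controls against 224, 117 and 185 CPM after chlordecone, with the same 2 libraries high and chlordecone 2 between the controls. Without chlordecone 2 both passed the threshold, at an edgeR adjusted p of 0.006695 (Hspa5) and 0.0209 (Dnaja1), in a fit that called 15% of all genes. Exons of Dnaja1 overlap Gm6297 and Smu1 on the other strand and Mir207 on its own. Dnajb1, the heat-inducible HSP40, was at 37.7 and 36.5 CPM in controls against 35.6, 33.4 and 29.4 CPM after chlordecone, lower in each chlordecone library by a small margin. For Dnajb1 the log2 fold change was -0.18 (SE 0.24, edgeR adjusted p = 0.828).

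The 2 cytosolic HSP90 genes, whose products mature kinases and steroid receptors such as the androgen receptor, did not reach the threshold. Hsp90aa1, the inducible form (chr12:110690605-110702728), was at 734 and 632 CPM in controls against 771, 1116 and 655 CPM after chlordecone, with chlordecone 2 highest. For Hsp90aa1 the log2 fold change was 0.31 (SE 0.35, edgeR adjusted p = 0.789). Hsp90ab1, the constitutive form (chr17:45567775-45573271), was at 632 and 549.8 CPM in controls against 1137, 755 and 691 CPM after chlordecone, with chlordecone 1 highest. For Hsp90ab1 the log2 fold change was 0.54 (SE 0.34, edgeR adjusted p = 0.608). The small heat shock protein gene Hspb1 (HSP27), which is abundant in muscle and binds actin (chr5:135887919-135889563), was at 14.7 and 16.8 CPM in controls against 41.1, 17.7 and 22.9 CPM after chlordecone. Its 3 chlordecone libraries were above both controls, in the order of the smooth muscle marker sum and of the other sums named for Hspa8 as sharing it. For Hspb1 the log2 fold change in F1 was 0.79 (SE 0.39, edgeR adjusted p = 0.485), and without chlordecone 1 it was 0.36. Its log2 fold change in F3 was 0.74, where all 10 smooth muscle markers had a lower mean after chlordecone. The part of these markers was not tested in either generation. Bag3, a co-chaperone of HSP70 in selective autophagy, was at 65.8 and 51.3 CPM in controls against 68.5, 77.9 and 75.95 CPM after chlordecone, also without overlap (log2 fold change 0.34). The mitochondrial chaperonin genes overlapped between groups. Hspd1 was at 82.1 and 99.3 CPM in controls against 105, 90.4 and 98.5 CPM after chlordecone. Hspe1 was at 97.5 and 113 CPM in controls against 127, 53.1 and 131 CPM after chlordecone. Their first exons overlap on opposite strands, so the strand uncertainty holds for both.

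**Figure D2:**
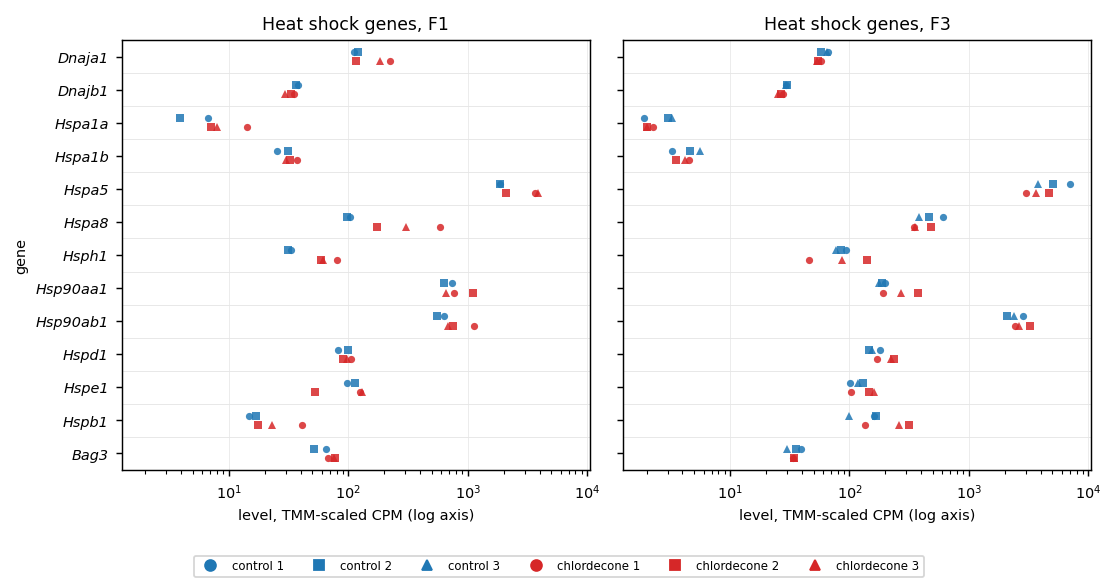
Levels of the 13 heat shock genes in each library, on a log axis of TMM-scaled CPM, F1 on the left and F3 on the right, with controls in blue, chlordecone in red and the marker giving the library number. In F1 the red points of Hspa8 and Hsph1 lie to the right of both blue points, and in F3 all genes but Dnajb1 have red points among the blue.

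Chlordecone 1 held the highest value of the 5 F1 libraries for 12 of 25 immediate early and 8 of 13 heat shock genes, against 23.9% of all genes. Relative to the control mean, the median log2 ratio of the heat shock genes was 0.95, 0.19 and 0.38 in chlordecone 1, 2 and 3, and that of the immediate early genes was 0.34, 0.20 and -0.14. The heat shock genes thus stood furthest above the controls in chlordecone 1. This library also had the highest vas deferens, smooth muscle, striated muscle, urothelium and epithelium marker sums. The leukocyte, fibroblast and prostate secretion sums were higher in chlordecone 3 than in chlordecone 1, and the adipose tissue sum was higher in chlordecone 2. The endothelium sum was highest in the controls. The seminal vesicle marker sum was instead lowest in chlordecone 1 among the chlordecone libraries. The part of these markers was not tested.

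**Figure D3:**
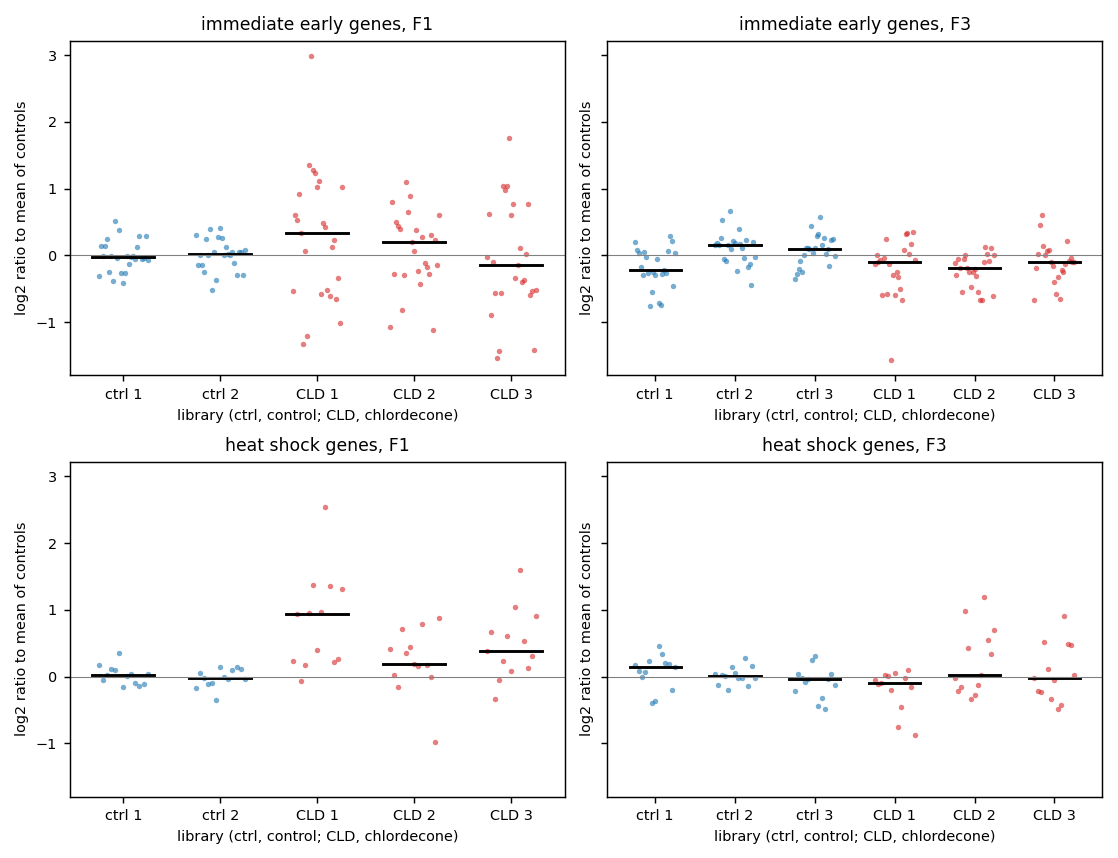
Log2 ratio of each gene to the control mean of its generation (vertical axis), by library, control libraries in blue and chlordecone libraries in red, with the immediate early genes above and the heat shock genes below; each point is 1 gene and each bar the median over the class. In F1 the heat shock medians are 0.95, 0.19 and 0.38 in chlordecone 1, 2 and 3; in F3 they are -0.09, 0.02 and -0.02.

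In F3 prostates, no immediate early gene passed the threshold (edgeR, 0 of 23 tested, against 0.0596% of all 16766 genes). DESeq2 called 0 as well, where it called 1.49% of all genes. Egr2 and Egr3 were too low to test. The fold changes were small and mostly below 0, 17 of 23, with a median of -0.13 beside -0.01 for all genes, of which 48.8% were above 0. At an unadjusted p under 0.05 stood 3 of 23, all lower (Klf2, Jund and Jun), against 10.6% of all genes and 5.64% lower. F3 was the more precise comparison: the median SE of the class was 0.20 against 0.41 in F1, and for 17 of the 23 the whole 95% interval lay between -1 and 1, which is within a 2-fold change either way. Groups did not overlap for 1 gene, Jun, which was lower, against 16.6% of all genes, 8.34% higher and 8.25% lower.

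Klf2, a factor of quiescent endothelium and T cells (chr8:72319033-72321656), was at 7.37, 9.83 and 10.1 CPM in controls against 5.495, 5.52 and 7.697 CPM after chlordecone. Of its chlordecone libraries, 2 were below all controls and the third was above control 1. For Klf2 the log2 fold change was -0.54 (SE 0.21, edgeR adjusted p = 0.453). Jun was at 36.98, 32.7 and 47.1 CPM in controls against 32.2, 31.1 and 25.7 CPM after chlordecone, lower in every chlordecone library, with a gap smaller than the range of the controls. For Jun the log2 fold change was -0.39 (SE 0.17, edgeR adjusted p = 0.466). Jund was the immediate early gene with the highest level per kilobase in both generations (31.5 and 75.1 CPM per kb in F1 and F3). The F3 table starts Jund at 70697739, upstream of the 70698949 of the annotation whose length was used. Its F3 level per kilobase may therefore be too high and cannot be set against that of F1. In F3 Jund was at 85.9, 163 and 217 CPM in controls against 102, 91.4 and 92.2 CPM after chlordecone. Control 1 lay below all 3 chlordecone libraries and controls 2 and 3 far above them. For Jund the log2 fold change was -0.71 (SE 0.29, edgeR adjusted p = 0.458), and it was -0.38 without control 3 and -0.99 without control 1. Junb had the same split, at 26.3, 57.3 and 54.2 CPM in controls against 34.5, 29.7 and 34.7 CPM after chlordecone. For Junb the log2 fold change was -0.48 (SE 0.27, edgeR adjusted p = 0.534). F3 control 1 also had the lowest smooth muscle marker sum, in a list that read 1455, 4734 and 4030.5 CPM in controls against 1863, 2883 and 2748 CPM after chlordecone, with all 10 markers lower in the chlordecone mean and none at 0; the part of these markers in the Jund and Junb values was not tested.

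Ier3 (chr17:35821684-35822923) was at 8.14, 11.5 and 10.97 CPM in controls against 6.55, 8.702 and 7.57 CPM after chlordecone, and 1 chlordecone library reached above control 1. For Ier3 the log2 fold change was -0.42 (SE 0.19, edgeR adjusted p = 0.485). Ier2 was at 16.6, 22.9 and 20.3 CPM in controls against 16.1, 16.6 and 17.7 CPM after chlordecone. Ier2 overlapped between groups, and the GADD45 genes had fold changes below 0 in F3. Gadd45a was at 4.89, 6.65 and 6.44 CPM in controls against 3.798, 5.12 and 6.27 CPM after chlordecone. Gadd45b was at 1.25, 4.23 and 2.67 CPM in controls against 2.23, 1.998 and 2.64 CPM after chlordecone. Gadd45g was at 9.25, 14.7 and 18.8 CPM in controls against 4.28, 9.69 and 12.7 CPM after chlordecone. For Gadd45g chlordecone 1 was the lowest of all 6 and the other two lay within the range of the controls. For Gadd45g the log2 fold change was -0.68 (SE 0.39, edgeR adjusted p = 0.548). All 7 feedback and growth arrest genes had fold changes below 0, from -0.68 to -0.05, with Btg2 at -0.17, Socs3 at -0.12, Zfp36 at -0.05 and Dusp1 at -0.05 on the log2 scale. Zfp36 was the steadiest of these, at 17.8, 16.9 and 17.1 CPM in controls against 16.4, 17.4 and 16.1 CPM after chlordecone, which bounds its log2 change to -0.32 to 0.21.

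Klf6, again among the 3 genes with the highest CPM, was at 60.5, 85.1 and 73.8 CPM in controls against 90.6, 78.9 and 66 CPM after chlordecone. For Klf6 the log2 fold change was 0.10 (SE 0.17, edgeR adjusted p = 0.8298). Nr4a1 was at 49.2, 36.4 and 35.6 CPM in controls against 40.6, 37.8 and 37.5 CPM after chlordecone and lay within the range of the controls in every chlordecone library. For Nr4a1 the log2 fold change was -0.06 (SE 0.15, edgeR adjusted p = 0.8905). Nr4a2 was at 3.86, 2.23 and 3.87 CPM in controls against 3.72, 3.52 and 3.12 CPM after chlordecone. Klf4 and Myc stood at 11.6 to 16.7 and 30.5 to 43.4 CPM over the 6 libraries, with log2 fold changes of -0.10 and 0.20. Atf3 was at 45.9, 44.2 and 31 CPM in controls against 36.5, 36.7 and 24.97 CPM after chlordecone (log2 fold change -0.30). Fos was at 2.91, 5.52 and 3.01 CPM in controls against 2.25, 2.36 and 5.84 CPM after chlordecone, and control 2 and chlordecone 3 were the 2 high libraries. The same 2 were highest for Egr1, at 4.26, 5.997 and 4.58 CPM in controls against 4.62, 4.23 and 6.93 CPM after chlordecone. Fosl2 ranged only from 10.1 to 12.9 CPM.

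Some members were scarce in F3. Fosb was at 0.233, 0.184 and 0.216 CPM in controls against 0.189, 0.186 and 0.283 CPM after chlordecone, resting on 13 to 30 counts per library. Egr2 rested on 2 to 16 counts, at 0.0232 to 0.156 CPM, and Egr3 on 0 to 4 counts, at 0 to 0.0566 CPM. In F1 these 3 genes ranged from 1.15 to 4.499, 1.105 to 2.73 and 2.39 to 10.6 CPM in libraries of lower depth. The ranges do not meet, but the 2 tables were made separately and give most members different coordinates. Marker sums differed too. Seminal vesicle markers were at 118370 and 120990 CPM in F1 controls and at most 70.6 CPM in F3. Epithelium markers were at 668 to 1188 CPM in F1 and 4222 to 4865 CPM in F3. The part of these markers was not tested. The levels are therefore a description of 2 tables, and no test was made.

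No heat shock gene passed the threshold in F3 (edgeR and DESeq2, 0 of 13, against 0.0596% of all genes in edgeR and 1.49% in DESeq2). Hsp90aa1, Hspd1 and Hspb1 were higher at an unadjusted p under 0.05, 3 of 13 against 10.6% of all genes (4.97% higher). Of the 5 HSP70 and HSP110 genes, 1 had a log2 fold change above 0, Hsph1. The median log2 fold change of the 13 was -0.04, beside -0.01 for all genes, with 6 above 0 and 7 below. For 10 of 13 the 95% interval lay within -1 and 1. Only Dnajb1 had groups that did not overlap, lower after chlordecone, at 29.3, 30.2 and 29.2 CPM in controls against 27.7, 26.5 and 25.2 CPM after chlordecone. For Dnajb1 the log2 fold change was -0.16 (SE 0.11, edgeR adjusted p = 0.595).

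Hsp90aa1 was at 197, 188 and 177 CPM in controls against 189, 372 and 267 CPM after chlordecone. The 3 controls were within a narrow range, chlordecone 1 lay inside it, and chlordecone 2 and 3 lay above. For Hsp90aa1 the log2 fold change was 0.56 (SE 0.22, edgeR adjusted p = 0.456). Hspb1 was at 159, 166 and 98.7 CPM in controls against 136, 315 and 259 CPM after chlordecone, with the same 2 libraries high. For Hspb1 the log2 fold change was 0.74 (SE 0.31, edgeR adjusted p = 0.465). Hspd1 (chr1:55077835-55088243) was at 181, 144 and 155 CPM in controls against 171, 234 and 224 CPM after chlordecone, again with chlordecone 1 among the controls. For Hspd1 the log2 fold change was 0.39 (SE 0.16, edgeR adjusted p = 0.458). Its partner Hspe1, which shares the promoter shown above, was at 100.2, 129.5 and 118 CPM in controls against 103, 146 and 161 CPM after chlordecone (log2 fold change 0.24, SE 0.18, edgeR adjusted p = 0.632), with chlordecone 2 and 3 above all controls. Hsph1 was highest in chlordecone 2 as well, at 94.3, 84.2 and 77.6 CPM in controls against 46.2, 139 and 87 CPM after chlordecone, but lowest in chlordecone 1. For Hsph1 the log2 fold change was 0.09 (SE 0.33, edgeR adjusted p = 0.926). Hsp90ab1 was at 2836, 2102 and 2366 CPM in controls against 2427, 3255 and 2625 CPM after chlordecone. For Hsp90ab1 the log2 fold change was 0.19 (SE 0.19, edgeR adjusted p = 0.7205). Chlordecone 2 thus held the highest value of 5 of 13 heat shock genes, against 11.4% of all genes, and of 0 of 23 immediate early genes.

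Hspa5, at 1070.0 CPM per kb again the highest of the class per kilobase, was at 7015, 5034 and 3768 CPM in controls against 3010.5, 4694 and 3629 CPM after chlordecone. Control 1 was highest and chlordecone 1 lowest, and the groups overlapped. For Hspa5 the log2 fold change was -0.48 (SE 0.27, edgeR adjusted p = 0.5404). Hspa8 was at 601, 466 and 380.4 CPM in controls against 346, 481 and 352 CPM after chlordecone, with control 1 highest and the groups overlapping. For Hspa8 the log2 fold change was -0.29 (SE 0.21, edgeR adjusted p = 0.602), with a 95% interval of -0.77 to 0.18. Hspa1a was at 1.91, 2.999 and 3.27 CPM in controls against 2.25, 2.02 and 2 CPM after chlordecone. Hspa1b was at 3.27, 4.58 and 5.55 CPM in controls against 4.56, 3.54 and 4.19 CPM after chlordecone. Both overlapped between groups. Exons of Hspa1a overlap Gm20481 on the other strand. Dnaja1 was at 66.6, 57.5 and 64.3 CPM in controls against 58.3, 53.99 and 53.7 CPM after chlordecone (95% interval of the log2 fold change -0.44 to 0.07). Bag3 was at 39.5, 35.96 and 30.2 CPM in controls against 33.8, 34.5 and 34.4 CPM after chlordecone (95% interval -0.34 to 0.26).

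**Figure D4:**
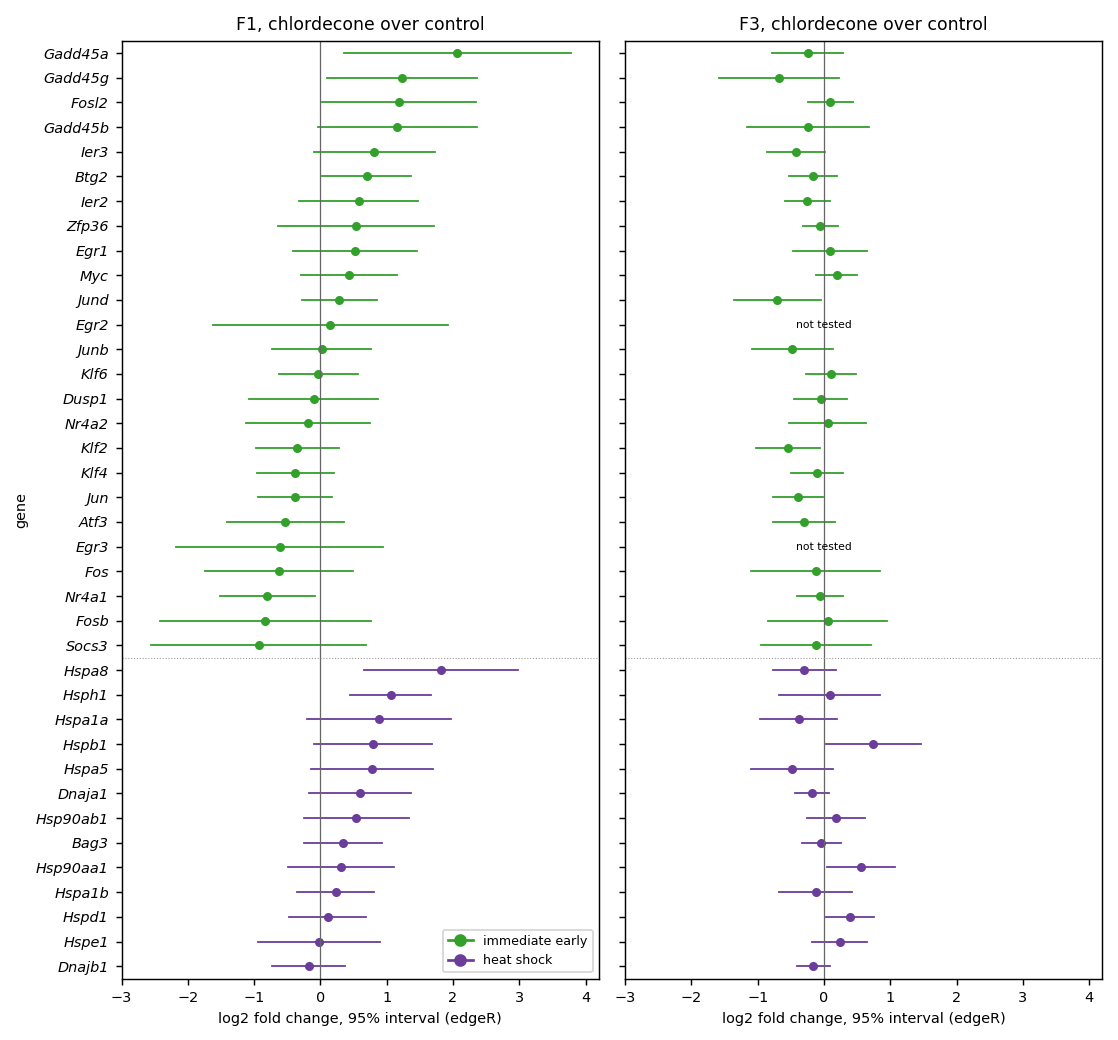
Log2 fold change of chlordecone over control with its 95% interval (horizontal axis) for each member, F1 and F3 side by side, from edgeR fitted within each generation; the vertical line marks 0. Green points are immediate early and purple points heat shock genes, Egr2 and Egr3 were not tested in F3, and Hspa8 lies at 1.82 in F1 and -0.29 in F3.

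Whether the chlordecone difference itself differed between generations was tested with an interaction term over all 11 libraries. No member passed the threshold (edgeR, 0 of 38, against 0.718% of all 16980 genes). DESeq2 called 1 of the 38, Hspa8, where it called 6.78% of all genes. At an unadjusted p under 0.05 stood 7 of 25 immediate early genes, 6 of them lower in F3 than in F1, and 4 of 13 heat shock genes, all lower. The share over all genes was 16.9%, made up of 7.04% higher and 9.91% lower in F3. In the same fit the difference was below 0 for 10 of 10 smooth muscle markers (9 at an unadjusted p under 0.05), 7 of 7 seminal vesicle markers (3) and 4 of 5 tested vas deferens and epididymis markers (2), with medians of -1.44, -2.33 and -7.51; the part of these markers was not tested. Hspa8 had the smallest p (F3 minus F1, log2 -2.04, SE 0.53, edgeR adjusted p = 0.0842). DESeq2 gave it an adjusted p of 0.00289, and its adjusted p ranged from 0.00289 to 0.211 over all alternatives. Gadd45a followed (-2.22, SE 0.75, edgeR adjusted p = 0.156; -1.06 without F1 chlordecone 1, and -2.56 with an edgeR adjusted p of 0.0251 without F1 chlordecone 2), then Ier3 (-1.16, SE 0.40, edgeR adjusted p = 0.156) and Gadd45g (-1.83, SE 0.65, edgeR adjusted p = 0.174). Without F1 chlordecone 2, these 4 and also Hspa5 and Dnaja1 passed the threshold, in a fit that called 13.8% of all genes.

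Genes of the same pathways outside the set were counted from 3 lists: 0 of 34 other early response genes tested passed the threshold in F1 and 0 of 31 in F3, 0 of 44 other chaperones in each generation, and 0 of 18 endoplasmic reticulum stress genes in each (edgeR). At an unadjusted p under 0.05 stood 6, 9 and 2 genes of these lists in F1 (17.6%, 20.5% and 11.1% of those tested, beside 11.5% of all genes) and 4, 5 and 1 in F3 (12.9%, 11.4% and 5.56%, beside 10.6% of all genes). In F1 their median log2 fold changes were 0.15, 0.26 and 0.05, and in F3 -0.17, -0.06 and 0.01. The 2 early response genes with the smallest p in F1 were Tob1, an antiproliferative relative of Btg2, at 448 ± 14.1 CPM (SD) in controls against 144 ± 17.5 CPM after chlordecone (edgeR adjusted p = 0.127), and Klf10, at 9.96 ± 2.36 CPM (SD) in controls against 28.1 ± 6.31 CPM after chlordecone (edgeR adjusted p = 0.192). Among chaperones, the muscle chaperone gene Hspb6 was at 20.4 ± 2.73 CPM (SD) in controls against 69.5 ± 36.4 CPM after chlordecone (edgeR adjusted p = 0.216). Among companions of Hspa5 the 2 with the smallest p pointed opposite ways, with Pdia6, a disulfide isomerase, at 1846 ± 18.03 CPM (SD) in controls against 863 ± 194 CPM after chlordecone and Herpud1, a factor of protein disposal, at 238 ± 0.184 CPM (SD) in controls against 374 ± 23.7 CPM after chlordecone (edgeR adjusted p = 0.284 and 0.415). In F3 the smallest p-values belonged to Ctgf and Rhob, Hspa13 and Stip1, and Ddit3 and Dnajb9, with edgeR adjusted p of 0.393, 0.4496, 0.421, 0.428, 0.465 and 0.492.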

How the data were processed

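Polyadenylated RNA of prostate was sequenced. For each generation the authors deposited a gene table, and the counts in it are whole numbers with no normalization. Per the submitters' processing notes, the build was mm10 and the tools were HTSeq 0.6.1, DESeq2 1.6.3, Bowtie2 2.1.0, TopHat2 2.0.14 and bcl2fastq 2.17.1.14. The F1 table's start and end match GRCm38 for 2 of the 38 members (the same span for 36), and the F3 table's for 25, so the tables were not made with the same coordinates or gene models, and levels set across them are descriptions. For the annotation release and strand setting, nothing was given in the sources used here. In the table headers, C was taken as control and K as chlordecone (kepone). The members, lists and tests were chosen with earlier results of these data known.

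Counts were tested in R 4.3.3 with edgeR 4.0.16 (TMM, filterByExpr with minimum count 10 and minimum total 15, quasi-likelihood F test, two-sided) over all genes of a generation, with Benjamini-Hochberg adjustment and a threshold of 0.05. The interaction was fitted over the genes in both tables. SE is the absolute log2 fold change divided by the square root of F, and intervals are 95%. Per-kilobase levels divide by the union of exons in GENCODE M21 (GRCm38). Full statistics were given, in each class and generation, for members past the threshold, the 4 with the smallest p and the 3 with the highest mean CPM, and for the interaction the 4 with the smallest p; genes of related lists were named as the 2 with the smallest p, of which 1 is not reported here. Alternatives were leaving out each library, the replicate number as a block, all libraries in 1 fit, the Wald test of DESeq2 1.42.0, its size factors in edgeR, a minimum mean of 1 CPM and no filter. Protein sequences were not used here.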

Additional observations from a re-analysis of the deposited data

How the results depend on the processing

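In F3, 0 members passed the threshold under every alternative run. In F1, the DESeq2 Wald test called 2 heat shock genes (719 of all genes, where edgeR called 5), 1 fit of all libraries called 1 of each class (930 of all genes), and leaving out 1 library gave 0 to 3 immediate early and 0 to 4 heat shock genes; the highest counts are those without chlordecone 2 (2604 of all genes). For the difference between generations, DESeq2 called 1 member (1151 of all genes, where edgeR called 122), and leaving out 1 library gave 0 to 6, the highest again without F1 chlordecone 2. The cause was not tested. Without a filter, 21 genes passed in F1 and 38 in F3, where DESeq2 called 249 and edgeR 10; a minimum of 1 CPM gave 188 for the interaction; none of these genes is a member beyond those named.

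The replicate block called 1 immediate early gene in F1, Gadd45a (log2 fold change 1.93, edgeR adjusted p = 0.0384), among 322 genes, 8 genes in F3 and 49 for the interaction. Deviations from the group mean correlated, for same-numbered libraries, at 0.0569 and 0.0638 in F1 and at 0.195, -0.0525 and -0.0502 in F3. For libraries of unlike number they ran from -0.291 to 0.31 in F3. Deviations within so small a group are tied to each other, so these values cannot decide whether same-numbered libraries were paired.

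Median log2 fold changes moved by less than the SD of the library medians: -0.11 to 0.18 (F1 immediate early), 0.37 to 0.62 (F1 heat shock), -0.25 to -0.09 (F3 immediate early) and -0.05 to 0.05 (F3 heat shock). Among genes chosen by the rule for full statistics, leaving out 1 library turned the sign of 3 small differences. These were Klf6 in F1 (-0.14 to 0.10, and 0.07 without chlordecone 2), Klf6 in F3 (-0.013 to 0.21) and Nr4a1 in F3 (-0.15 to 0.11). Members outside that rule were in the same fits, but their values there were kept only where they passed the threshold. This holds even where an SE is given above, as for Hsph1 in F3, so their signs may also turn. Low counts limit the F3 values of Egr2, Egr3 and Fosb.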
